A study of Homo sapiens with 4 samples.

Results

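The genes described here build, modify and carry heparan sulfate, chondroitin sulfate and dermatan sulfate, and were measured in the established human tongue squamous carcinoma line SCC-9. They are 38 named genes, taken by symbol from the array's annotation, of 18132 genes that the annotation names. Of the 38, 37 were matched and NDST2 was not analysed here. Each gene was represented by its brightest probe set over the arrays. Of the 37 genes, 33 passed the filter on dim genes and were tested among 14123 genes. SCC-9 cells were transfected with synthetic miR-585-5p (mimic group, 2 arrays) or with the control small RNA miR-NC (control group, 2 arrays), each at 30 nM and 24 hours after seeding, and RNA was taken 36 hours after transfection. Both groups are the same unselected line, with no other allele or agent named in the labels, and the series asks how raising miR-585-5p alters the transcriptome. Nothing in the labels ties the arrays of a group to different cultures; the p-values rest on how far these arrays lie apart, and that spread may be technical.

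Heparan sulfate and chondroitin sulfate are long sugar chains that hang from core proteins at the cell surface and in the matrix. Both start on the same short linkage sugars, and the enzyme that adds the next sugar decides which chain grows. In the Golgi the chains are then epimerized and sulfated, which turns part of the chondroitin sulfate into dermatan sulfate and creates the sites that bind growth factors, chemokines and matrix proteins. In squamous epithelium, syndecan-1 is the main cell surface carrier of heparan sulfate.

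The microRNA supplied is shown with its partner strand from the same hairpin, because its seed (bases 2 to 8, in capitals) sets which transcripts it can pair with. The sequences are RefSeq's for GRCh38.p14, on the minus strand, at chr5:169263649-169263670 for the 5p strand and chr5:169263616-169263634 for the 3p strand. The exact oligonucleotide used as mimic was not checked against them.
hsa-miR-585-5p: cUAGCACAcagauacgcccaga
hsa-miR-585-3p: uGGGCGUAucuguaugcua
No other of 2370 named human mature microRNAs in that table has the seed UAGCACA, whose match in a target reads UGUGCUA. No probe set measures the mature microRNA, and which of the transcripts below hold a match was not tested.

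Median intensities of the 4 arrays were 30.6 to 31.3, and the correlation across probe sets was 0.998 between the mimic arrays and 0.997 between the control arrays. The brightest of 20 control probe sets with no human target read 16.8, and a value at or under it is called background here. The cells carried squamous markers on every array: the 4 measured of 8 listed (KRT5, KRT14, SFN and PERP) summed to 19238 and 20138 in the mimic group and 17295 and 17680 in the control group. Within that list KRT14 was higher with the mimic (0.97, adjusted p = 1.05e-07) and SFN lower (-0.42, adjusted p = 5.04e-06), and their part in the results was not tested. Of 5 fibroblast markers 4 were at background on every array (sums of the list 71.6 to 75.8), COL3A1, LUM, DCN and COL1A2, while PDGFRB read 34.7 to 40.9. Of 3 endothelial markers CDH5 was at background on every array, VWF read 40.7 to 45.3 and PECAM1 16.2 to 19.1. PTPRC, the pan-leukocyte marker, read at most 3.94, and CD3E read 13.6 to 18.0. CD14 was higher in the mimic group, at 103 and 86.3 against 54.9 and 63.3, and its part in the results was not tested. In bulk RNA, fewer cells that express a gene and less of its RNA per cell cannot be told apart. The poly(A) RNA spikes stood 0.35 higher (log2) in the mimic group, so directions near 0 depend on the scale used, as given below.

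Of the 33 genes tested, the brightest probe set of 14 was higher and that of 7 lower with the mimic (limma, adjusted p under 0.05). These counts hold B3GALT6 among the higher and NDST1 among the lower, whose other probe sets passed in the opposite direction, as given below. Over all 14123 genes tested 55.0% changed, 28.1% higher and 26.9% lower, so changed genes were common throughout and the count of 21 of 33 (63.6%) is to be read against that. The groups did not overlap in 27 of the 33 genes, and in 79.4% of all genes tested. The median log2 change was 0.07 over the 33 genes and -0.06 over all genes; that of the 33 was 0.040 without control replicate 1 and 0.14 without control replicate 2. Changes of at least 2-fold were seen in 3 of the 33: DSEL and EXTL3 were lower and SULF2 was higher. Such changes made up 8.16% of all genes tested.

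**Figure D1:**
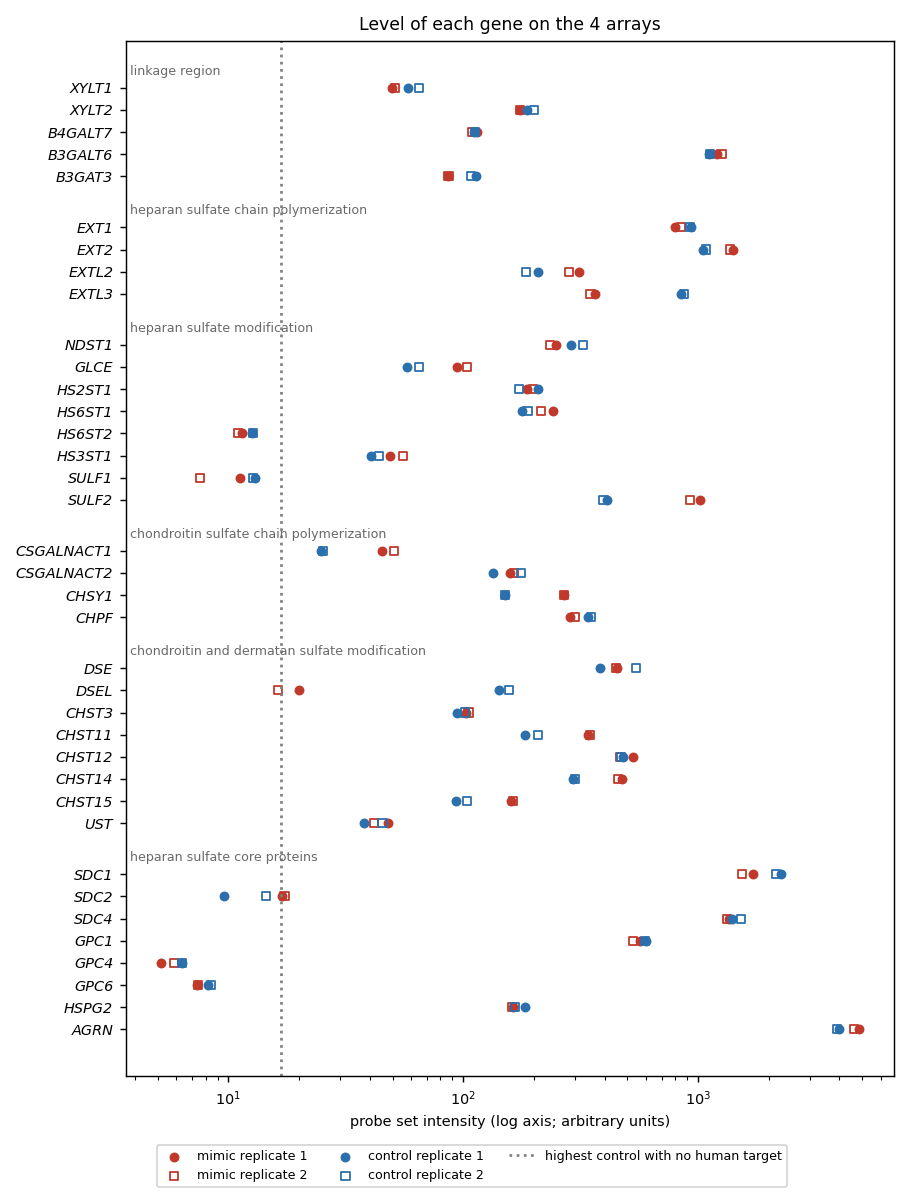
Intensity of each gene's brightest probe set on the 4 arrays (log axis, arbitrary units; red, mimic; blue, control; circles, replicate 1; squares, replicate 2), with the highest no-target control (16.8) as a dotted line. DSEL falls from 141 and 157 to 20.1 and 16.3, and HS6ST2, SULF1, GPC4 and GPC6 lie under the line on all 4 arrays; positions of different genes are not comparable, since probe sets differ in response.

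DSEL, a paralogue of dermatan sulfate epimerase that turns glucuronic acid of chondroitin into iduronic acid, fell the most. It read 20.1 and 16.3 with the mimic and 141 and 157 with miR-NC. The groups were far apart, and 1 of the 2 mimic arrays was at background. The change was -3.04 ± 0.13 (log2, SE, n = 2 per group; adjusted p = 2.73e-08), a fall of 8.24-fold. A second DSEL probe set fell as well, from 43.7 and 43.4 to 15.0 and 17.4, again with 1 mimic array at background (-1.43 ± 0.14, adjusted p = 2.62e-06 over all probe sets). DSE, the other epimerase gene, did not pass: it read 450 and 447 with the mimic and 383 and 543 with miR-NC. Both mimic values of DSE lay between the control values, and the change was -0.02 (95% interval -0.30 to 0.26). The sign of DSE turned on which control array was used: it was 0.23 when control replicate 2 was left out and -0.28 when control replicate 1 was, both past the threshold.

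Of 8 genes that epimerize or sulfate chondroitin and dermatan 3, all sulfotransferases, rose, 1 (DSEL) fell and 4 did not pass. Changed genes were thus 50% of the 8, against 55.0% of all genes tested. CHST11, which sulfates chondroitin on its galactosamine units, read 340 and 348 with the mimic and 184 and 208 with miR-NC. Both mimic values lay above both control values, with a change of 0.81 ± 0.08 (log2, adjusted p = 8.51e-06). CHST14, the corresponding enzyme for dermatan, which acts on chains that an epimerase has modified, read 476 and 457 against 293 and 300.5. It rose by 0.65 ± 0.06 (adjusted p = 9.39e-06), opposite to DSEL. CHST15, which adds a further sulfate to already sulfated galactosamine, went from 93.5 and 103 to 159 and 163, a rise of 0.71 ± 0.09 (adjusted p = 5.75e-05). The 2 other probe sets of CHST11 and the 2 other probe sets of CHST15 above background rose too. The genes that did not pass were CHST3, CHST12 and UST, besides DSE. The log2 changes of these 3 were 0.09 (-0.11 to 0.30), 0.06 (-0.10 to 0.22) and 0.11 (-0.19 to 0.40). A dimmer UST probe set rose from background (9.89 and 9.67) to 18.0 and 18.7, so the probe sets of UST, a uronyl sulfotransferase, differ.

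Among the enzymes that begin and extend chondroitin chains, 2 of 4 rose and 1 fell (75% changed, against 55.0% of all genes tested). CHSY1, a chondroitin synthase, read 268 and 270 with the mimic and 151 on both control arrays, a rise of 0.83 ± 0.07 (log2, adjusted p = 4.16e-06). CSGALNACT1, which adds the first galactosamine and so commits the linkage to chondroitin, read 45.2 and 50.8 against 24.9 and 25.2. It rose by 0.94 ± 0.12 (adjusted p = 7.60e-05), and its other probe set above background rose by 0.37. The mean of its probe sets was at 0.39. The brightest CSGALNACT1 probe set is of a kind marked as shared between transcripts. Without such probe sets the gene rose by 0.37 and passed narrowly (limma, adjusted p = 0.0421). CSGALNACT2, its paralogue, read 158 and 165 against 134 and 176, so the groups overlapped (0.07, 95% interval -0.19 to 0.34); it passed without control replicate 2, at 0.27. CHPF, a partner of the synthase, read 286 and 300 with the mimic and 341 and 349 with miR-NC, a change of -0.24 ± 0.07 (adjusted p = 0.0123) that did not pass without mimic replicate 1 (-0.20). The 2 other CHPF probe sets did not pass. For CHSY1, averaging in its 2 probe sets at background gave 0.27, which did not pass. The brightest CHSY1 probe set is of a kind marked as shared between transcripts, and no other was above background.

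**Figure D2:**
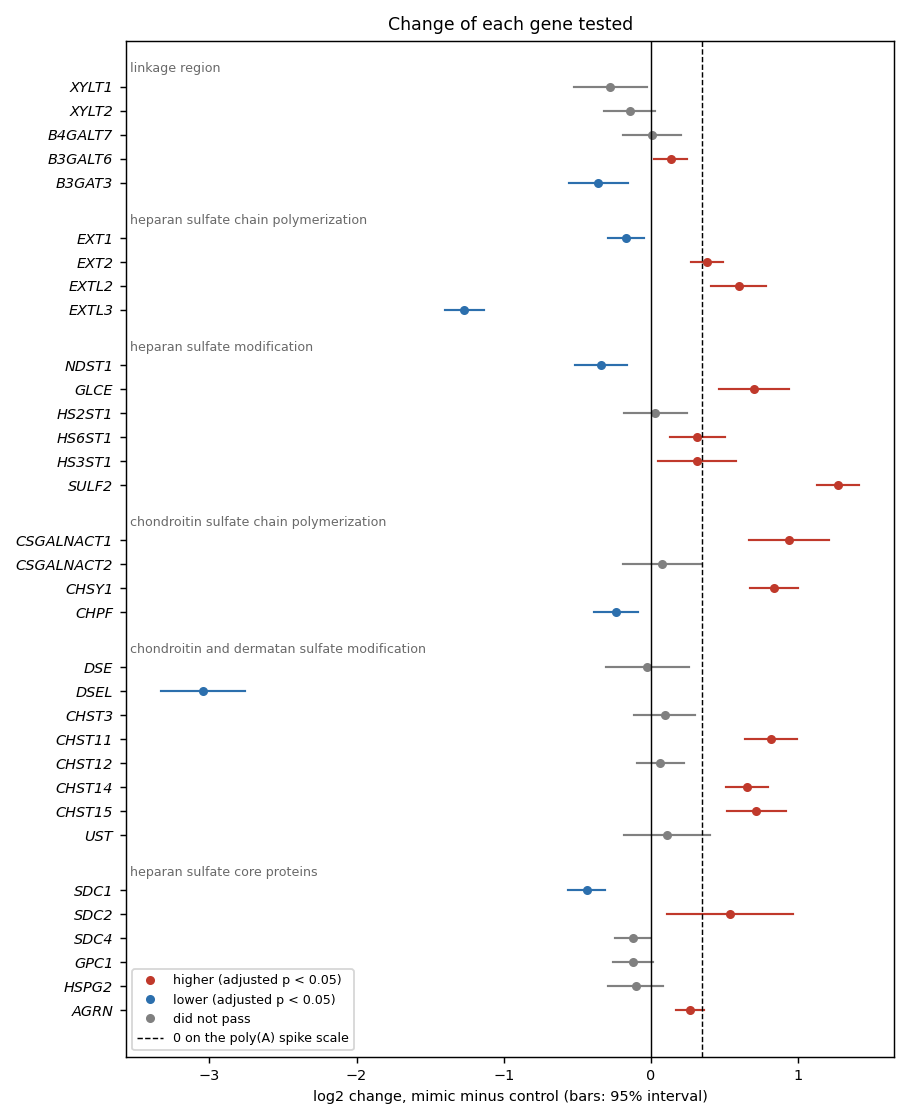
Log2 change, mimic minus control, of the 33 genes tested, grouped by step, with 95% intervals that are not adjusted for the number of genes (red, higher; blue, lower; grey, did not pass). DSEL (-3.04) and EXTL3 (-1.27) lie farthest to the left and SULF2 (1.27) farthest to the right; the dashed line at 0.35 is where a gene would stand at 0 if the arrays were set to the poly(A) spikes.

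The 4 genes listed for starting, extending or capping heparan sulfate chains passed, 2 in each direction, where 55.0% of all genes tested did. EXTL3, which adds the first glucosamine and so commits the linkage to heparan sulfate, read 364 and 349 with the mimic and 844 and 871 with miR-NC. The change was -1.27 ± 0.06 (log2, adjusted p = 5.01e-08), a fall of 2.41-fold. Its 2 other probe sets fell by 1.19 and 0.75 on the log2 scale. EXTL2, which can cap the phosphorylated linkage region and stop a chain, went the other way, from 208 and 185 to 311 and 283 (0.59 ± 0.09, adjusted p = 1.39e-04), and its 3 other probe sets rose by 0.49 to 0.96. The copolymerase subunits EXT1 and EXT2 also split. EXT2 read 1416 and 1367 with the mimic and 1053 and 1086 with miR-NC, a rise of 0.38 ± 0.05 (adjusted p = 8.11e-05), with its 3 other probe sets at 0.61 to 0.90; on the poly(A) scale it did not pass (0.033). EXT1 read 797 and 847 against 932 and 921, a change of -0.17 ± 0.06 (adjusted p = 0.0216) that did not pass without mimic replicate 1 (-0.13) or without the mean-variance trend.

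Of 8 measured genes that modify or trim heparan sulfate 6 were tested: 4 rose, HS2ST1 did not pass, and NDST1 passed with probe sets in opposite directions. By brightest probe set 83.3% of the 6 changed, against 55.0% of all genes tested. SULF2, a secreted sulfatase that removes sulfate from finished chains, rose the most of all 33 genes. It read 1022 and 921 with the mimic and 409 and 396 with miR-NC, a 2.41-fold rise (1.27 ± 0.07, log2; adjusted p = 9.13e-08). Its other probe set rose by 1.09 ± 0.09. SULF1, its paralogue, was at background on all 4 arrays (at most 12.9) and was not tested, as was the sulfotransferase gene HS6ST2 (at most 12.7). GLCE, the epimerase of heparan sulfate, read 94.4 and 104 against 57.5 and 64.8, with no overlap, a rise of 0.70 ± 0.11 (adjusted p = 2.42e-04). The sulfotransferase genes HS6ST1 and HS3ST1 each rose by 0.31 (adjusted p = 0.00873 and 0.0471). HS6ST1 did not pass without mimic replicate 1 (0.23), and HS6ST1 was at 0.045 with the mean of its probe sets. HS3ST1 did not pass when mimic replicate 1 (0.40), mimic replicate 2 (0.22) or control replicate 1 (0.25) was left out. NDST1, which starts the sulfation of a chain, was uncertain. Its brightest probe set read 250 and 235 with the mimic and 289 and 325 with miR-NC (-0.34 ± 0.08, adjusted p = 0.00411; -0.30, not past the threshold, without mimic replicate 2). The next brightest read 274 and 262 against 129 and 114 (1.14 ± 0.09, adjusted p = 4.76e-07 over all probe sets), and the mean of all its probe sets passed at 0.21, so no direction is given for the gene. HS2ST1, a further sulfotransferase, overlapped between groups at its brightest probe set (188 and 199 against 208 and 172; 0.03, 95% interval -0.19 to 0.25), while 3 of its 4 other probe sets above background fell, by 0.51 to 0.83 on the log2 scale.

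Of 5 linkage region enzymes, which both chain types share, 3 did not pass and B3GAT3 fell. B3GALT6 passed as higher at its brightest probe set, while its other probe set fell. By brightest probe set 40% of the 5 changed, against 55.0% of all genes tested. B3GAT3, which adds the last linkage sugar, read 85.9 and 86.6 with the mimic and 113 and 108 with miR-NC, a change of -0.36 ± 0.09 (log2, adjusted p = 0.00671). It did not pass without mimic replicate 1 (-0.35) or mimic replicate 2 (-0.36). Its other probe set was at 0.00, and the mean of both, at -0.18, did not pass. Both B3GAT3 probe sets are of a kind marked as shared between transcripts. B3GALT6, a galactosyltransferase, read 1203 and 1259 against 1117 and 1125 (0.13 ± 0.05, adjusted p = 0.0439), but its other probe set fell, from 432 and 475 to 385 and 366 (-0.27, adjusted p = 0.00706 over all probe sets). Its call was also lost without either mimic array (0.17 without replicate 1 and 0.10 without replicate 2) and without control replicate 1 (0.13). The xylosyltransferases XYLT1 and XYLT2, which start every chain, were at -0.28 (-0.52 to -0.03) and -0.15 (-0.32 to 0.03), and the galactosyltransferase gene B4GALT7 was at 0.01 (-0.19 to 0.20). XYLT1 passed in 6 of 13 alternatives, one of them without control replicate 1 (-0.36).

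Of 8 core protein genes 6 were tested, 2 rose and 1 fell. Those calls make 50% of the 6, against 55.0% of all genes tested. SDC1, syndecan-1, read 1716 and 1543 with the mimic and 2259 and 2152 with miR-NC. Its 2 other probe sets fell by similar amounts (0.44 and 0.47 on the log2 scale), and the change of the brightest was -0.44 ± 0.06 (adjusted p = 7.44e-05). All SDC1 probe sets are of a kind marked as shared between transcripts, so a fit without such probe sets could not include SDC1. AGRN, agrin of the basement membrane, read 4874 and 4610 against 3973 and 3923, a rise of 0.26 ± 0.04 (adjusted p = 2.90e-04). The brightest AGRN probe set is of a kind marked as shared between transcripts, and the 1 other (55.6 and 72.3 against 68.9 and 68.4) did not pass (-0.12); the mean of both was at 0.074. SDC2 read 16.9 and 17.3 with the mimic and was at background on both control arrays (9.62 and 14.5), so it was at least 1.02-fold higher (adjusted p = 0.0371). The call of SDC2 ended when any array but control replicate 2 was left out, with 0.24 without control replicate 1, 0.55 without mimic replicate 1 and 0.51 without mimic replicate 2. SDC4, glypican-1 (GPC1) and perlecan (HSPG2) did not pass, at -0.12 (-0.24 to -0.00483, unadjusted), -0.12 (-0.26 to 0.01) and -0.11 (-0.29 to 0.08). SDC4 passed without control replicate 1 (-0.18), and a second GPC1 probe set rose, at 0.37. When quantile normalization was run again, SDC4 (-0.17) and GPC1 (-0.18) both passed as lower. GPC4 and GPC6 were at background on all 4 arrays, at most 6.33 and 8.40.

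**Figure D3:**
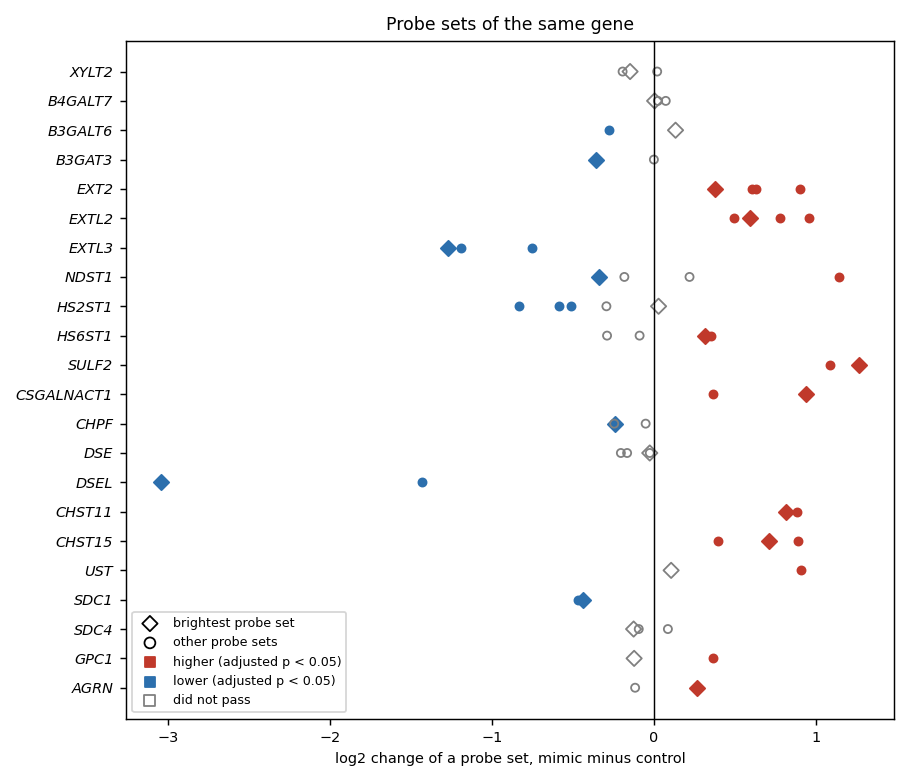
Log2 change of every probe set above background on at least 1 array for genes with several (diamond, brightest; circle, others; filled, adjusted p under 0.05 in a fit over 31755 probe sets). Probe sets of EXT2, EXTL2, EXTL3, SULF2, CHST11, CHST15 and SDC1 lie on 1 side of 0. Those of NDST1 and B3GALT6 lie on both, as do those of other genes, among them HS6ST1, AGRN, GPC1 and HS2ST1.

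Several genes had more than 1 probe set, which gives a further reading of the gene from the same arrays. Whether the probe sets of a gene read the same transcript was not tested. A further probe set above background was there for 15 of the 21 called genes. In 10 of these at least 1 other passed in the same direction and none in the opposite one: EXT2, EXTL2, EXTL3, HS6ST1, SULF2, CSGALNACT1, DSEL, CHST11, CHST15 and SDC1. In 2, B3GALT6 and NDST1, another passed in the opposite direction, and in 3, B3GAT3, CHPF and AGRN, none passed. Of the 10, HS6ST1 also had probe sets at -0.09 and -0.29 that did not pass. Over all probe sets fitted 51.4% passed. In the probe set fit the brightest B3GALT6 probe set did not pass.

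The scale matters for the small changes. With the arrays set to a shared level of the poly(A) spikes, every log2 change moves down by 0.35 and the median of all genes goes from -0.06 to -0.40, so that 8 of the 33 genes were higher and 18 lower, and the higher genes made up 16.4% of all calls in place of 51.1%. SULF2, CSGALNACT1, CHSY1, CHST11, CHST15, GLCE, CHST14 and EXTL2 still rose on that scale. DSEL, EXTL3, SDC1, B3GAT3, EXT1, CHPF and the brightest NDST1 probe set still fell. EXT2 (0.033) and SDC2 (0.19) no longer passed there, and AGRN, HS6ST1, HS3ST1 and B3GALT6 turned to values below 0.

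Of the other genes of the pathway, 60 were listed and 54 matched, and of 42 tested the brightest probe set of 15 was higher and that of 7 lower, with a median log2 change of 0.04. That is 52.4% changed, near the 55.0% of all genes tested. Besides the members, 10 enzymes of chain assembly were tested, of which 3 rose and 1 fell (40% changed). PXYLP1, the phosphatase that removes phosphate from the linkage xylose, read 205 and 180 with the mimic and 44.6 and 44.0 with miR-NC, a rise of 2.12 ± 0.10 (log2, adjusted p = 5.17e-08) that was 0.87 as the mean of its 4 probe sets. FAM20B, the kinase that adds that phosphate, was at 0.22 ± 0.07 (adjusted p = 0.0309) and CHPF2, a chondroitin synthase partner, at 0.33 ± 0.10 (adjusted p = 0.0197). Neither passed without either mimic array (0.23 and 0.32 without replicate 1, 0.20 and 0.34 without replicate 2) nor without control replicate 1 (0.22 and 0.18). FAM20B also did not pass without probe sets marked as shared between transcripts (0.30). NDST4 was at background on both mimic arrays and on 1 of the 2 control arrays, and was at least 1.02-fold lower (adjusted p = 0.0291), a call lost without mimic replicate 1 (-0.32) or control replicate 1 (-0.38).

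Of 9 genes that supply sulfate and sugar donors 6 rose and 2 fell, where 28.1% of all genes tested were higher and 26.9% lower. That is 88.9% changed, against 55.0% of all genes tested. Of the risen genes, PAPSS1 (0.34), PAPSS2 (0.26) and SLC35D1 (0.21) lay under the 0.35 by which the poly(A) scale moves every change down. UGP2 and UXS1, which make UDP-glucose and UDP-xylose, rose by 0.77 ± 0.05 and 0.78 ± 0.07 (adjusted p = 4.38e-07 and 5.64e-06). UGP2 read 3519 and 3737 against 2201 and 2056, and UXS1 409 and 451 against 246 and 253. Both still passed on the poly(A) scale, UGP2 at 0.42 and UXS1 at 0.44. SLC35B3, a Golgi carrier of the sulfate donor, rose by 0.41 ± 0.07 (adjusted p = 4.51e-04), while the sulfate transporter SLC26A2 fell from 1620 and 1617 to 1050 and 1116 (-0.58 ± 0.05, adjusted p = 3.88e-06; -0.38 as the mean of its probe sets).

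Of 12 degradation genes tested 3 were higher and 2 lower at the brightest probe set (41.7% changed, against 55.0% of all genes tested). HPSE, heparanase, which cuts heparan sulfate chains outside the cell, read 173 and 155 with the mimic and 364 and 378 with miR-NC. It fell 2.27-fold (-1.18 ± 0.08, log2; adjusted p = 5.63e-07; -0.62 as the mean of its probe sets), opposite to the sulfatase gene SULF2. SUMF1, which activates sulfatases, was at 0.47 ± 0.08, the lysosomal enzyme genes HGSNAT and ARSB at 0.76 ± 0.09 and 0.54 ± 0.13 (adjusted p = 4.56e-04, 4.73e-05 and 0.00486). HGSNAT was at -0.079 with the mean of its probe sets, so no direction is given for it. ARSB did not pass without mimic replicate 1 (0.52) or mimic replicate 2 (0.57).

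Of 11 other core protein genes tested 2 rose, 2 fell, and CD44 passed with probe sets that differ in direction. By brightest probe set 45.5% of the 11 changed, against 55.0% of all genes tested. TGFBR3, betaglycan, a carrier of both chain types that binds TGF-beta, read 248 and 232 against 65.1 and 69.0, a rise of 1.84 ± 0.09 (log2, adjusted p = 5.79e-08) that was 1.10 as the mean of its probe sets. COL18A1, a basement membrane collagen with heparan sulfate chains, rose by 1.18 ± 0.09 (adjusted p = 1.69e-06). SDC3 fell from 38.4 and 39.0 to 24.8 and 25.8 (-0.61 ± 0.12, adjusted p = 0.00137). CD44, a hyaluronan receptor of which some isoforms carry chains, was at 0.52 ± 0.05 (adjusted p = 8.49e-06) at its brightest probe set, but at -1.02 at the brightest one not marked as shared and at -0.032 over the mean of all 10, so no direction is given for it. On the poly(A) scale SLC35B3 (0.069), ARSB (0.20) and SUMF1 (0.12) did not pass, nor did SUMF1 with the mean of its probe sets (0.19).

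**Figure D4:**
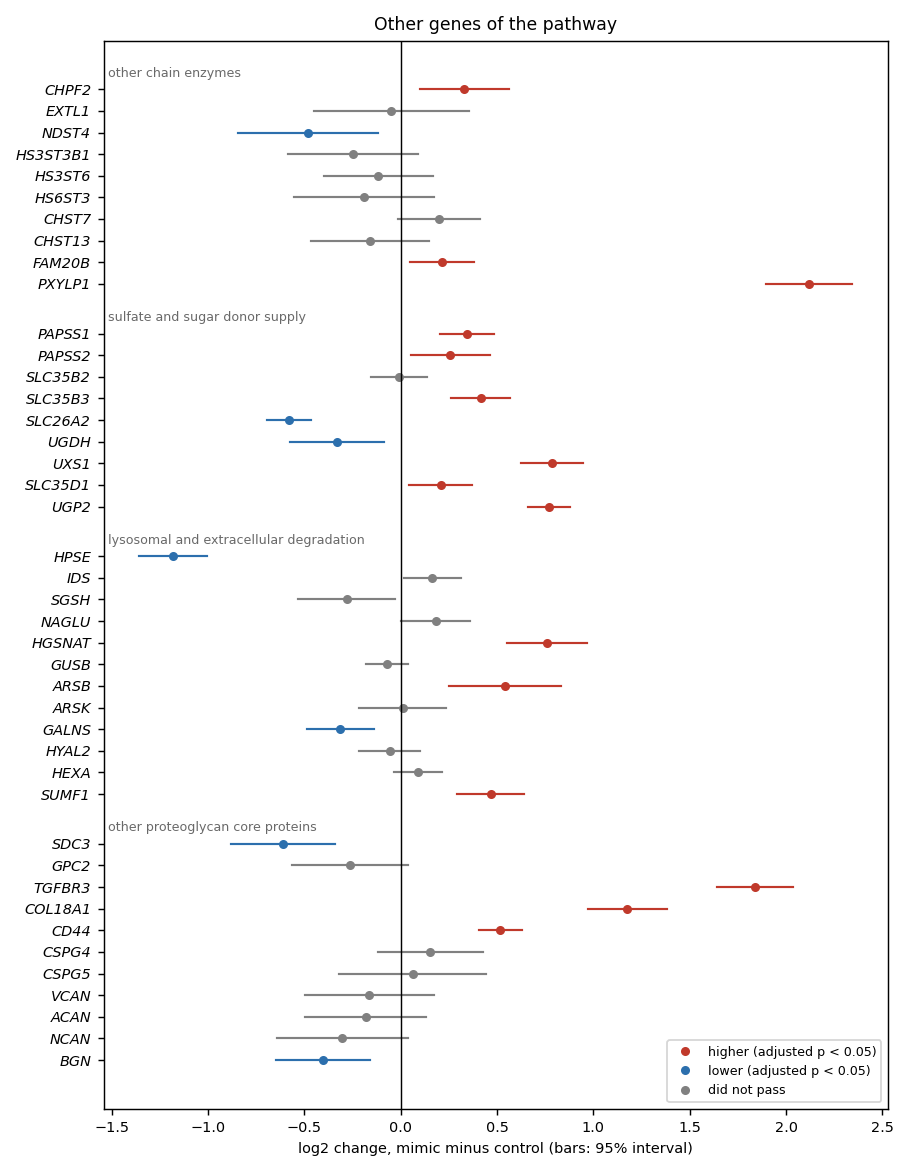
Log2 change, mimic minus control, with unadjusted 95% intervals, of the 42 other pathway genes tested, in 4 groups (red, higher; blue, lower; grey, did not pass). PXYLP1 (2.12), TGFBR3 (1.84) and COL18A1 (1.18) lie farthest to the right and HPSE (-1.18) farthest to the left.

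Promoter windows are shown for DSEL, the gene that fell most, and for CHST11 and CHST14, sulfotransferase genes that rose together, so that the sequence can be read beside the values. Each runs from 250 bases before to 50 after the start of the gene (RefSeq, GRCh38.p14), 5′ to 3′ on the gene's strand, with GC boxes (GGGCGG on either strand) in capitals. They lie at chr18:67516671-67516970 (minus strand), chr12:104456698-104456997 (plus) and chr15:40470734-40471033 (plus).
DSEL: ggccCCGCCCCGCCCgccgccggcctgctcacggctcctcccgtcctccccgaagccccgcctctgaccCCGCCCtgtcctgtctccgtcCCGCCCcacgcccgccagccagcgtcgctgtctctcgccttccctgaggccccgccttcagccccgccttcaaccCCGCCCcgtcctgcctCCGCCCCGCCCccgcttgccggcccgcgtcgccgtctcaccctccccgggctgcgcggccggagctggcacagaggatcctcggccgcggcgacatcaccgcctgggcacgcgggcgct
CHST11: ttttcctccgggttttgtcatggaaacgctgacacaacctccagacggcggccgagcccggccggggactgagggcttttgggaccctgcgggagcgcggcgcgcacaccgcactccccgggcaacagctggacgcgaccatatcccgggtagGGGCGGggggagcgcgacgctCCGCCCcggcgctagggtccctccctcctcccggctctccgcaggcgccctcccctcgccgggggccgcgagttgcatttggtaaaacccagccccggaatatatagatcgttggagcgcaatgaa
CHST14: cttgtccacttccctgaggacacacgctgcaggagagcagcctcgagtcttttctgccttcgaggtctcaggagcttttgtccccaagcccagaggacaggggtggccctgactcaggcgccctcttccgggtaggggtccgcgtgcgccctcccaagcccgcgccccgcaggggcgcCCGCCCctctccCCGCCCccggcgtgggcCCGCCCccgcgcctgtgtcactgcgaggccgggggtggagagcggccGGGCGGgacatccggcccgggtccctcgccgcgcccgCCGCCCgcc
The DSEL window holds 7 GC boxes, counted with overlaps, at 79.0% G and C, against a median of 58.7% over 35116 windows; CHST14 holds 5 and CHST11 holds 2. Of 31 of the genes with a window 29 hold a GC box, as do 72.8% of the genes tested, and the 11 risen and 5 fallen genes with a window all hold one. The CCAAT box (CCAAT, either strand) is in 9 of the 31 against 42.1% of the genes tested, and the TATA box (TATAAA, either strand) in 2 against 9.8%. A gene with several windows counts as holding a motif if any window does, and these matches are descriptions of sequence, not sites.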

How the data were processed

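The members, the lists and the tests were chosen with earlier results of these data known. The authors deposited probe set intensity values of 4 arrays, made with RMA per the submitters' processing notes, which give no version. The values (2.09 to 17329) are on a linear scale, so their log2 was taken. RMA sets the arrays to 1 distribution, so a shift of the whole transcriptome cannot be seen on this scale. Biotin-labelled RNA came from 2 ug of total RNA, per the labels.

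Of 49395 probe sets, 44988 have 1 gene symbol in the platform annotation. Each gene took the probe set with the highest mean log2, and a gene was tested if that mean lay over an intensity of 12.0, the 30th percentile. The difference between mimic and control came from lmFit and eBayes with trend (limma 3.58.1, R 4.3.3; 2 residual and 8.35 prior degrees of freedom; two-sided; Benjamini-Hochberg over all genes, threshold 0.05). The method was tested on simulated data with independent noise and few changed genes, unlike these data. Such data cannot show whether the spread between the arrays is technical. Errors are SEs. Intervals use the same fit. In an "at least" fold, the values of the group at background on all its arrays are replaced by the highest no-target control (16.8). Values of the other group are used as read. NDST2 and 6 genes of the other lists were not analysed here. Members are all named. Of the other lists, up to 4 called genes with the largest change each are named, besides PAPSS1, PAPSS2 and SLC35D1. The number of arrays limits the precision.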

Additional observations from a re-analysis of the deposited data

How the results depend on the processing

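Of the 21 called genes, 10 kept direction and call in every single-gene alternative, of 13, that could be run on them. They were EXTL2, EXTL3, GLCE, SULF2, CSGALNACT1, DSEL, CHST11, CHST14, CHST15 and SDC1. SDC1 has only probe sets marked as shared, so the alternative without those could not be run on it. GLCE and CHST14 have 1 probe set each, not marked as shared, so the alternatives on probe sets could not alter their log2 change. With the poly(A) spikes 8 members were higher and 18 lower, and 1613 and 8198 of all genes; B4GALT7 -0.34, B3GALT6 -0.21, HS2ST1 -0.32, HS6ST1 -0.033, HS3ST1 -0.036, CSGALNACT2 -0.27, CHST12 -0.28, AGRN -0.082, CHPF2 -0.016 and FAM20B -0.13 changed sign, as did CHST3 -0.25 and UST -0.24, which passed on neither scale. With the mean of all probe sets B3GALT6 -0.070, NDST1 0.21, HS2ST1 -0.28, HGSNAT -0.079 and CD44 -0.032 did, without probe sets marked as shared AGRN -0.12 and CD44 -1.02, and without control replicate 2 DSE 0.23. Genes that passed neither in the reported fit nor in the alternative also changed sign: CHST3 -0.12 and GPC1 0.12 (mean of all probe sets), XYLT2 0.021 (without shared ones), HS2ST1 -0.10 and CSGALNACT2 -0.12 (without control replicate 2 and 1), and B4GALT7, CHST12, UST and HS2ST1 at sizes under 0.05 when an array was left out or the arrays were normalized again. Leaving out each array gave 14 to 23 changed members (10 to 16 higher, 4 to 10 lower; fewest lower without mimic replicate 1) and 5406 to 8128 changed genes (2897 to 4087 higher, 2509 to 4041 lower; fewest without mimic replicate 2). The replicate block, for numbers that only name the arrays (correlation of deviations 0.085), gave 14 higher and 8 lower members, adding XYLT1. The other alternatives were no trend, other filters, a shared median, quantile normalization run again and a threshold of 0.01. Quantile normalization run again gave 12 higher and 10 lower members, and 3651 and 4063 of all genes. There B3GALT6 (0.052) and HS3ST1 (0.29) no longer passed, and XYLT1 (-0.30), SDC4 (-0.17) and GPC1 (-0.18) passed as lower. The median of the tested members was 0.021 there, against -0.066 over all genes. The rest of these gave 11 to 13 higher and 5 to 7 lower members. The cause of these changes was not tested. Probe sets near background limit the size of the DSEL, SDC2 and NDST4 changes.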
